A study of Rattus norvegicus with 8 samples.

Results

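The voltage-gated potassium channel genes were taken from the deposited analysis table by symbol: Kcna, Kcnb, Kcnc, Kcnd, Kcnf, Kcng, Kcnh, Kcnq, Kcns or Kcnv followed only by a number, with the beta subunit genes Kcnab1 to Kcnab3. This gave 43 genes among 21239 distinct gene symbols. Each of the 43 was measured by 1 probe set, the group of array probes summarised into 1 signal. Voltage-gated potassium channels open when a neuron depolarises and let potassium out, which ends the action potential and sets how soon the next one can start. The pore is built from several subunits that may differ, so the set of genes a neuron transcribes shapes its firing pattern. In the hippocampus the Shaw-related genes (Kcnc) serve fast firing, the Shaker-related genes (Kcna) act in axons, the Shal-related genes (Kcnd) carry the transient dendritic current of pyramidal cells, and the Kcnq genes carry the M current that acetylcholine closes.

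RNA came from bilateral 1 mm3 punches of dorsal hippocampus of young adult, drug-naive, first-generation male Sprague-Dawley rats. Of 8 Affymetrix arrays, 4 held sons of fathers given access to intravenous nicotine, which they self-administered at a dose of 0.03 mg/kg over 60 days, and 4 held sons of yoked saline sires, each array a separate litter of another father. These groups are called nicotine-sired and saline-sired, and their arrays are numbered by litter. The sires alone took the drug, so the comparison asks whether channel transcripts differ in sons that never received it. All values are log2 signals, so that a difference of 1 unit is a fold of 2, and the signals of different probe sets are not on 1 scale of transcript amount. A punch mixes cell types, so fewer cells of a type and less RNA per cell cannot be told apart.

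Kcnc2, a Shaw-related channel of fast-firing interneurons, fell by 0.61 on the log2 scale in nicotine-sired sons, and Kcnh8, a channel of the elk group, fell by 1.03. No other member passed the test, which was limma across 15161 probe sets with Benjamini-Hochberg adjustment and a threshold of 0.05. Of the 43 genes, 36 had a mean signal above the median probe set of 6.30 and were tested, and the 2 calls among them (5.56%) stand beside 2.06% of all tested probe sets, with lower calls alone at 0.884% and higher calls, of which the channel genes had 0, at 1.18%. Kcnh8 entered the test through its saline-sired arrays, with a mean of 7.12 there and of 6.09 on nicotine-sired arrays. The 4 saline-sired and the 4 nicotine-sired values did not overlap for 7 of the 36 genes (19.4%), against 14.3% of all tested probe sets. Among these 7, 6 were lower in nicotine-sired sons, where 6.15% of all tested probe sets were apart on that side, and 1 was higher, against 8.19%. An unadjusted p under 0.05 was reached by 15 of the 36 (41.7%), against 24.0% of all tested probe sets.

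As a group the channel genes did not lie to one side. Of the 36, 19 were lower and 17 higher in sons of nicotine sires, and the median difference was -0.06 beside 0.02 over all tested probe sets. The sizes of the differences, whatever their sign, had a median of 0.276, against 0.119 over all tested probe sets. Values also spread more widely among nicotine-sired sons, with a larger SD than in saline-sired sons for 28 of the 36 genes and for 59.9% of all tested probe sets. The plot of differences by subfamily shows that signs were mixed between and often within subfamilies.

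**Figure D1:**
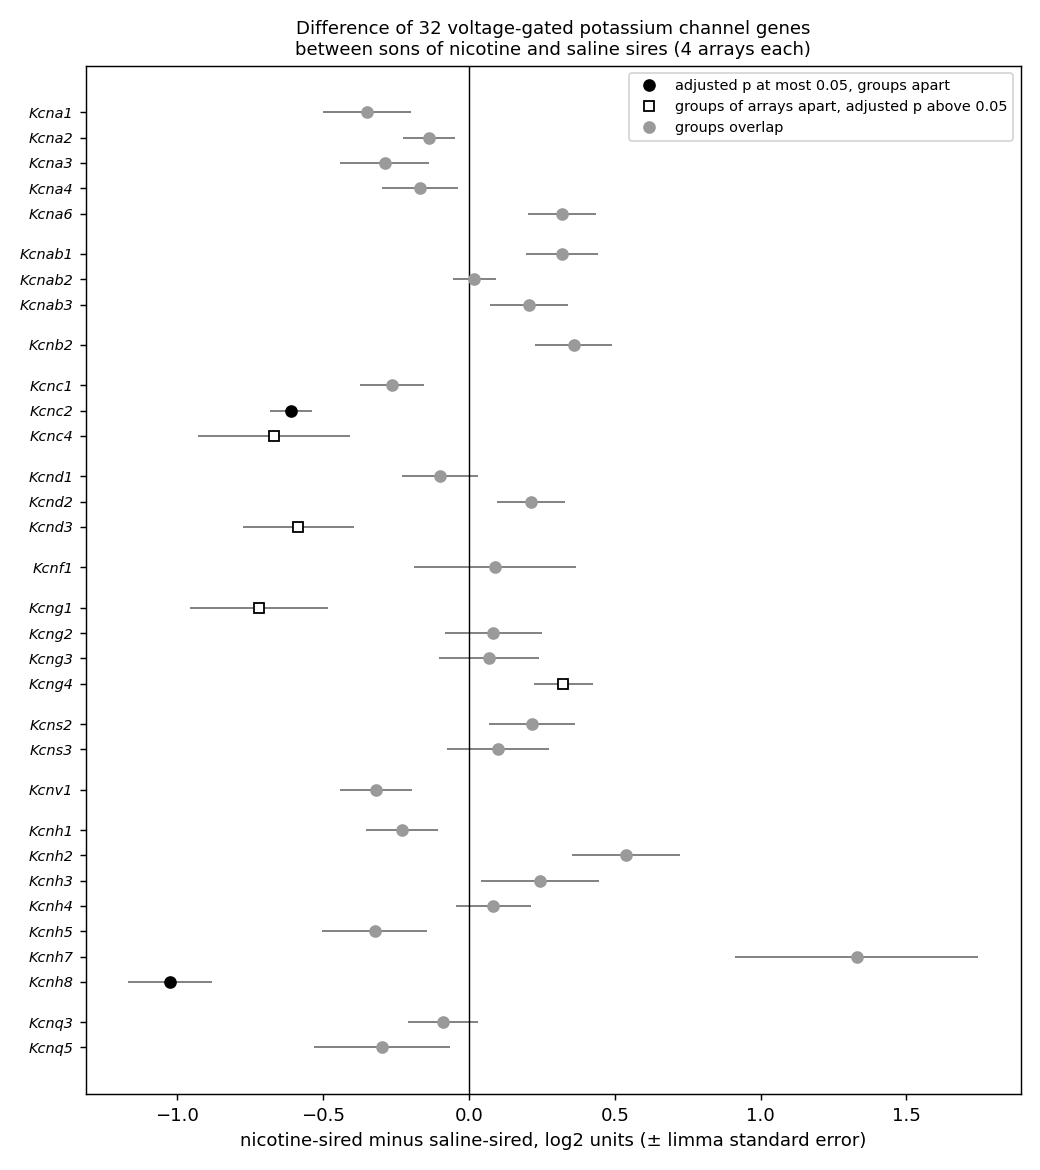
Difference in log2 signal (x axis, nicotine-sired minus saline-sired mean, with limma standard errors) for 32 of the 36 tested channel genes (y axis, grouped by subfamily). Filled black points mark Kcnc2 and Kcnh8, the 2 genes with an adjusted p of at most 0.05, open squares the 4 other genes shown whose groups of 4 arrays do not overlap, and grey points the genes whose groups overlap.

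The Shaw-related channels open only at strong depolarisation and close quickly, and Kcnc1, Kcnc2 and Kcnc4 all had lower means in nicotine-sired sons. Kcnc2 read 9.35, 9.35, 9.19 and 9.15 on nicotine-sired 1 to 4 and 9.81, 9.98, 9.89 and 9.80 on saline-sired 1 to 4. The highest nicotine-sired value thus lay well below the lowest saline-sired one, and the values within each group were close together. The means were 9.26 ± 0.11 and 9.87 ± 0.09 (SD, n = 4 each), a fall of 0.61 with a standard error of 0.07, or 1.53-fold (limma adjusted p = 0.0196). The size of this fall hardly depended on any 1 array, with differences from -0.64 to -0.57 over the fits that left out 1 of the 8 arrays. The call did depend on the saline-sired arrays: dropping saline-sired 1 gave an adjusted p of 0.0816, dropping saline-sired 2 gave 0.0564 and dropping saline-sired 3 gave 0.0586. In these fits 0, 8 and 0 of all tested probe sets passed, so the loss was not particular to Kcnc2.

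Kcnc4, the rapidly inactivating member found in mossy fibre terminals, read 7.13, 8.26, 8.31 and 8.34 on nicotine-sired 1 to 4 and 9.06, 8.50, 8.57 and 8.58 on saline-sired 1 to 4. The groups were apart. Nicotine-sired 1 stood far below and saline-sired 1 far above the other arrays of their groups, and the difference of -0.67 ± 0.26 (standard error, limma adjusted p = 0.164) came to -0.37 without nicotine-sired 1 and to -0.06 ± 0.38 with a score of CA1 pyramidal cell markers, given with the Kcnh genes, as a covariate. Kcnc1, expressed in parvalbumin interneurons, read 8.77, 9.13, 8.80 and 8.72 against 8.97, 8.99, 9.26 and 9.25. Here nicotine-sired 2 lay among the saline-sired arrays, and the difference was -0.26 ± 0.11 (adjusted p = 0.186).

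**Figure D2:**
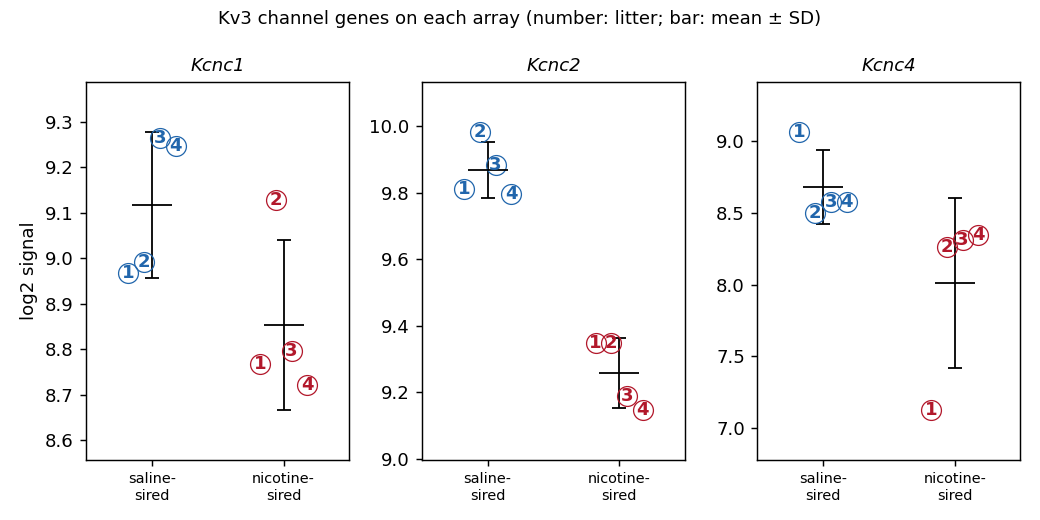
Log2 signal (y axis) of the Shaw-related genes Kcnc1, Kcnc2 and Kcnc4 on each array, with the litter number in each circle and the mean ± SD of 4 arrays as bars. The groups are apart for Kcnc2 and Kcnc4 and overlap for Kcnc1.

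Promoters of these genes are shown because their means lay lower together. RefSeq sequences of the GRCr8 assembly, from 250 bases before to 50 bases after the gene start, were held for 28 of the 43 channel genes, among them Kcnc1, Kcnc2 and Kcnc4. Capitals mark the GC box GGGCGG on either strand (CCGCCC on the other), a motif bound by Sp1. For Kcnc2 the more upstream of its 2 starts is shown.
Kcnc1 (chr1:106038997-106039296, plus strand): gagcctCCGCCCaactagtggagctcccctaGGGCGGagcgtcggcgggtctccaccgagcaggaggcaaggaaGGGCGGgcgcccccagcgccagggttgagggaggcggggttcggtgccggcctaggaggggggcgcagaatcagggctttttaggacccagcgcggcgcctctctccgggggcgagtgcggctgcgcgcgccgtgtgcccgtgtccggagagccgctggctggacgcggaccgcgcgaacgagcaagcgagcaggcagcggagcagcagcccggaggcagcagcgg
Kcnc2 (chr7:49587364-49587663, plus strand): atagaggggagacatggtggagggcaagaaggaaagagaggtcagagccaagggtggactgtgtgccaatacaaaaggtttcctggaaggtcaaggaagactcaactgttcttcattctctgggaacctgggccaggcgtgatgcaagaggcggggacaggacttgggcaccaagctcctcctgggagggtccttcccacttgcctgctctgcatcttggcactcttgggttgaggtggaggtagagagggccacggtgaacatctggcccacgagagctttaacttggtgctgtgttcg
Kcnc4 (chr2:197788384-197788683, minus strand): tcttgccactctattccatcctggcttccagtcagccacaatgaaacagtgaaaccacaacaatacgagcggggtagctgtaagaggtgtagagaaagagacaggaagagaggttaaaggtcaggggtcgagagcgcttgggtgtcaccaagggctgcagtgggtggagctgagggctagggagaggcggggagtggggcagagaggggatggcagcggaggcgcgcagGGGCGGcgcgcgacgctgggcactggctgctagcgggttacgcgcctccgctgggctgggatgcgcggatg
The Kcnc1 promoter, at 74.0% G and C, held 3 GC boxes, that of Kcnc4 held 1 and that of Kcnc2, at 56.0% G and C, held 0. A GC box was present in 17 of 30 channel gene promoters (56.7%) and in 33.1% of all 33469 promoters of that length, and the channel gene promoters were richer in G and C, with a median of 64.2% against 51.7%. The cyclic AMP response element TGACGTCA, its own reverse complement, was found in 0 of the 30 and in 1.83% of all promoters. The E-box CACGTG, likewise palindromic, was found in 1 of the 30, that of Kcnh4, and in 6.42% of all. These matches describe letters in this window and not bound sites.

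Kcnh genes, named after the fly gene ether-a-go-go, held both the lowest and the highest difference of all the channel genes. They form the groups eag (Kcnh1 and Kcnh5), erg (Kcnh2, Kcnh6 and Kcnh7), whose current slows repetitive firing, and elk (Kcnh3, Kcnh4 and Kcnh8), which opens near the resting potential. Kcnh8 read 5.94, 6.37, 5.96 and 6.10 on nicotine-sired 1 to 4 and 7.34, 6.78, 7.26 and 7.09 on saline-sired 1 to 4. The groups were apart, with means of 6.09 ± 0.20 and 7.12 ± 0.25 (SD, n = 4 each), and the gene fell by 1.03 with a standard error of 0.14, or 2.04-fold (limma adjusted p = 0.0245). Its nicotine-sired mean lay under the filter value of 6.30, and 23 antigenomic control probe sets, which match no rat sequence, had medians of 4.32 to 4.53 and highest values of 7.96 to 8.37 per array, so Kcnh8 lay between the median and the highest control signal on every array. The difference ran from -1.14 to -0.95 over the fits that left out 1 array, but the call was lost without saline-sired 1 (adjusted p = 0.0816) and also without saline-sired 3 (0.0699). In both of these fits 0 of all tested probe sets passed.

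Within each array Kcnh8 minus the mean of the other 6 tested Kcnh genes was -2.37 ± 0.43 on nicotine-sired and -1.07 ± 0.31 on saline-sired arrays (SD, n = 4 each), with no overlap. The contrast was made because Kcnh8 had been called, so its difference of -1.30 is given as a description with no test. The mean of the 6 relatives differed by 0.27, and the highest of them were Kcnh7 and Kcnh2, described next. The like contrast of Kcnc2 with its own subfamily did not pass (two-sided exact permutation p = 0.229), and its values are not reported here. In the elk group Kcnh3, a forebrain channel, differed by 0.24 ± 0.20 and Kcnh4 by 0.08 ± 0.13, and in the eag group Kcnh1 differed by -0.23 ± 0.12 and Kcnh5 by -0.32 ± 0.18, with limma adjusted p-values from 0.284 to 0.725.

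Kcnh7 and Kcnh2 of the erg group lay higher. Kcnh7 read 11.26, 9.99, 10.62 and 9.28 on nicotine-sired 1 to 4 and 9.03, 9.12, 8.12 and 9.57 on saline-sired 1 to 4. Nicotine-sired 4 lay between saline-sired 2 and 4, so the groups overlapped, and the difference of 1.33 ± 0.42 (2.51-fold, adjusted p = 0.104) did not pass. Kcnh2, whose human form is the HERG channel of the heart, read 8.24, 7.69, 7.77 and 7.31 against 7.09, 7.33, 6.98 and 7.46, again with nicotine-sired 4 inside the saline-sired range. Its difference was 0.54 ± 0.19 (adjusted p = 0.129). Without nicotine-sired 4 both passed, at 1.66 (adjusted p = 0.037) and 0.68 (adjusted p = 0.0473). Kcnh6, the third erg gene, had a signal under the filter value, at 5.88 to 6.05 on nicotine-sired and 6.07 to 6.42 on saline-sired arrays, and was not tested.

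**Figure D3:**
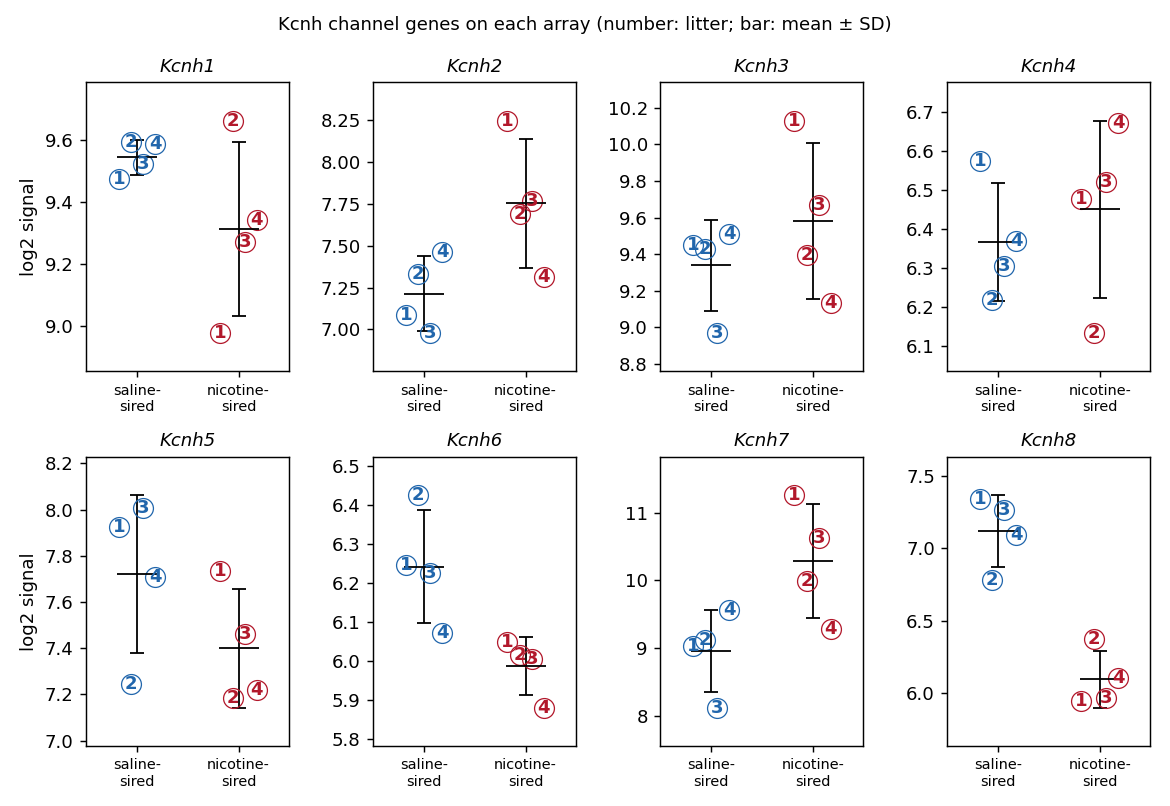
Log2 signal (y axis) of Kcnh1 to Kcnh8 on each array, with the litter number in each circle and the mean ± SD of 4 arrays as bars. Kcnh8 and the dim Kcnh6 are apart and lower on nicotine-sired arrays, and Kcnh2 and Kcnh7 are higher on 3 of the 4 nicotine-sired arrays than on any saline-sired array.

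The promoters of the Kcnh genes with the lowest and the highest difference follow, with GC boxes in capitals on either strand.
Kcnh8 (chr9:5742433-5742732, plus strand): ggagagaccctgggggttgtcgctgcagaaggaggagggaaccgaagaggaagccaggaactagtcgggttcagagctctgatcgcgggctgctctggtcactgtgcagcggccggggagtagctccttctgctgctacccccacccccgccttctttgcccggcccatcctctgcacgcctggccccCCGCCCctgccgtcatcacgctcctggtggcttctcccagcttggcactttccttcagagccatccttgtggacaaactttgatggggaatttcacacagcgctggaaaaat
Kcnh7 (chr3:68230622-68230921, minus strand): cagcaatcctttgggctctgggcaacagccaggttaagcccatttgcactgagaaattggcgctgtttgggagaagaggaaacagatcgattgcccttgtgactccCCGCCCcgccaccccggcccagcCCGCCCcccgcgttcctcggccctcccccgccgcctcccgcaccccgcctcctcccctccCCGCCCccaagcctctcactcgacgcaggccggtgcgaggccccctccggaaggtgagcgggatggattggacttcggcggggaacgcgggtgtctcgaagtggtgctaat
That of Kcnh8 held 1 GC box and that of Kcnh7 held 3, at 61.7% and 67.3% G and C.

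Markers of CA1 pyramidal cells moved with Kcnh7 and Kcnh2, 2 of the 3 erg genes. Each of the 8 CA1 markers tested lay above its saline-sired mean in sons of nicotine sires (median difference 1.80, 1 of 8 past the limma threshold, or 0 with no filter on low signals, and all 8 at an unadjusted p under 0.05), and their mean centred score was 1.86, 0.62, 1.30 and -0.08 on nicotine-sired 1 to 4 and -1.12, -0.74, -1.80 and -0.05 on saline-sired 1 to 4. The 8 arrays stood in the same order by Kcnh7 as by this score, in 28 of 28 pairs of arrays, which describes 8 arrays on which both were read from the same RNA. Counting only the 12 pairs within a group, which leave the comparison of groups aside, Kcnh7, Kcnh2 and Kcns2 were ordered as the score in 12 of 12, whereas 0.706% of all tested probe sets were. Kcnab1, Kcnd2, Kcna2 and Kcnh3 followed it in 11 of 12, Kcnc2 in 6 and Kcnh8 in 3. With the score as a covariate the difference of Kcnh7 went to -0.37 ± 0.16 and that of Kcnh2 to -0.16 ± 0.15, while Kcnc2 differed by -0.66 ± 0.13 and Kcnh8 by -0.75 ± 0.23. None of these passed in that fit (adjusted p from 0.285 to 0.777), in which 0 of all probe sets did, with 1436 at an unadjusted p under 0.05. The score itself differed between nicotine-sired and saline-sired arrays, with means of 0.93 and -0.93. So that fit cannot tell CA1 marker content and the sires' treatment apart.

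**Figure D4:**
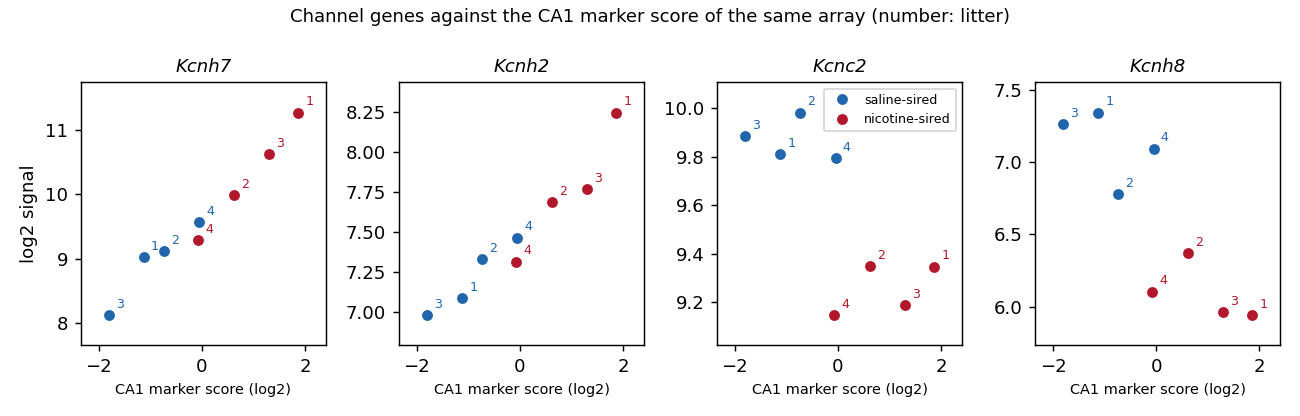
Log2 signal of Kcnh7, Kcnh2, Kcnc2 and Kcnh8 (y axes) against the mean centred score of 8 CA1 markers of the same array (x axis, log2 units), with the litter number beside each point. Kcnh7 follows the score in 28 of 28 pairs of arrays and Kcnh2 in 27, and Kcnc2 separates the groups without following the score inside them.

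Of the 8 Shaker-related genes, which act in axons, 5 were tested, 4 of them lower and 1 higher, and 0 passed (limma adjusted p from 0.148 to 0.462, with an unadjusted p under 0.05 for Kcna1 and Kcna6). Kcna1, which with Kcna2 keeps axons from firing repeatedly, read 10.94, 11.74, 11.47 and 11.66 on nicotine-sired 1 to 4 and 11.80, 11.76, 11.90 and 11.73 on saline-sired 1 to 4, a difference of -0.35 ± 0.15 that was -0.18 without nicotine-sired 1. That array lay lowest, and nicotine-sired 2 lay inside the saline-sired range. Kcna6, the member with the smallest p, read 9.04, 8.89, 9.09 and 9.29 against 8.63, 8.83, 9.01 and 8.55, with nicotine-sired 2 below saline-sired 3, and differed by 0.32 ± 0.12, or 0.59 ± 0.17 with the CA1 covariate. Kcna3, known from T cells as well, differed by -0.29, Kcna4, which carries a transient axonal current, by -0.17 and Kcna2 by -0.14. Kcna5, Kcna7 and Kcna10 were under the filter value, with means over all arrays of 5.91, 6.26 and 5.47.

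The cytoplasmic beta subunits, which bind Shaker-related channels and speed their inactivation or carry them to the axon, were higher in 3 of 3 cases. By limma 0 passed, and Kcnab1 had an unadjusted p under 0.05. Kcnab1 read 11.30, 10.80, 11.07 and 10.71 on nicotine-sired 1 to 4 and 10.68, 10.61, 10.53 and 10.80 on saline-sired 1 to 4. Nicotine-sired 4 lay below saline-sired 4, and the difference was 0.32 ± 0.12 (limma adjusted p = 0.162). It was -0.12 ± 0.11 with the CA1 score as a covariate. Kcnab2, the probe set with the highest signal of the set, read 12.12 to 12.47 and 12.20 to 12.37 and differed by 0.02 ± 0.07. Kcnab3 differed by 0.21 ± 0.13.

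Kcnb2, a Shab-related gene of the delayed rectifier of the cell body, read 9.03, 8.55, 8.93 and 8.60 on nicotine-sired 1 to 4 and 8.68, 8.38, 8.26 and 8.35 on saline-sired 1 to 4. Saline-sired 1 lay above nicotine-sired 2 and 4, and the difference of 0.36 ± 0.13 did not pass (limma adjusted p = 0.144). With the CA1 covariate its difference was 0.08.

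Silent subunits (Kcnf, Kcng, Kcns and Kcnv) form no channel alone and modify the Shab-related ones. Of these genes 8 were tested. By limma 0 passed, and Kcng1, Kcng4 and Kcnv1 had an unadjusted p under 0.05. Kcng1 read 7.31, 8.38, 8.40 and 8.29 on nicotine-sired 1 to 4 and 9.04, 8.59, 8.99 and 8.63 on saline-sired 1 to 4. The groups were apart, with nicotine-sired 1 far below the rest, and the difference of -0.72 ± 0.24 (limma adjusted p = 0.114) was -0.46 without that array and -0.07 ± 0.31 with the CA1 score as a covariate. Kcng4 was the 1 member apart on the higher side, at 7.84, 8.18, 7.82 and 7.75 against 7.50, 7.54, 7.58 and 7.67, a difference of 0.32 ± 0.10 (adjusted p = 0.104). The lowest nicotine-sired and the highest saline-sired value of that gene lay close together.

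Kcnv1, a brain subunit that quiets Shab-related channels, read 8.95, 8.75, 8.51 and 8.42 against 8.76, 9.05, 9.09 and 9.0, and differed by -0.32 ± 0.12 (adjusted p = 0.16), or -0.52 ± 0.20 with the CA1 covariate. Nicotine-sired 2, 3 and 4 lay below every saline-sired array, and nicotine-sired 1 among them. Kcns2 read 8.21, 7.54, 7.77 and 7.49 against 7.55, 7.56, 7.43 and 7.61 and differed by 0.22 ± 0.15, or 0.07 without nicotine-sired 1. Kcnf1 read 6.29, 6.30, 7.02 and 7.61 against 6.42, 6.75, 6.98 and 6.71. Its nicotine-sired values ran past the saline-sired range at both ends, and its difference of 0.09 ± 0.28 turned to -0.18 without nicotine-sired 4. Kcng2, Kcng3 and Kcns3 differed by 0.07 to 0.10, and Kcns1 and Kcnv2 were under the filter value.

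Of the Shal-related genes, Kcnd3, a channel of interneurons as well as pyramidal cells, read 7.65, 8.62, 8.35 and 8.56 on nicotine-sired 1 to 4 and 8.79, 9.0, 8.80 and 8.93 on saline-sired 1 to 4. The groups were apart, nicotine-sired 1 being the lowest. The difference was -0.58 ± 0.19 (limma adjusted p = 0.112), or -0.37 without nicotine-sired 1 and -0.19 ± 0.29 with the CA1 score as a covariate. Kcnd2, the main subunit of the transient current in CA1 dendrites, read 12.21, 11.83, 12.09 and 11.60 against 11.77, 11.69, 11.66 and 11.77. Nicotine-sired 1 to 3 lay above every saline-sired array and nicotine-sired 4 below every one, the difference being 0.21 ± 0.12 (adjusted p = 0.294) and -0.17 ± 0.13 with the covariate. Kcnd1 differed by -0.10 ± 0.13.

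The M current of the Kcnq genes is the one through which muscarinic receptors raise excitability. Kcnq5 read 10.34, 11.60, 10.78 and 10.93 on nicotine-sired 1 to 4 and 10.95, 11.54, 11.17 and 11.18 on saline-sired 1 to 4. Nicotine-sired 2 lay above every saline-sired array and the other nicotine-sired arrays below every one, and the difference was -0.30 ± 0.23 (limma adjusted p = 0.461). Kcnq3, another subunit of that current, differed by -0.09 ± 0.12 (adjusted p = 0.689). Kcnq1, the channel of heart and epithelia, was under the filter value at a mean of 5.55. The 7 genes under that value (Kcna5, Kcna7, Kcna10, Kcnh6, Kcnq1, Kcns1 and Kcnv2) had differences of -0.26 to 0.13, and with no filter Kcnc2 and Kcnh8 were the 2 of all 43 that passed.

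Partners of these channels were read on the same arrays. Of 23 listed genes of auxiliary subunits, anchors and clustering proteins, 20 were tested, 11 higher and 9 lower, with a median of 0.05. The 1 that passed was Lgi1, a secreted protein that acts on presynaptic Shaker-related channels and whose loss causes epilepsy. Lgi1 fell by 0.52 with a standard error of 0.11 (limma adjusted p = 0.0472), a call lost with no filter on low signals (adjusted p = 0.0607). An unadjusted p under 0.05 was reached by 6 of the 20. The partners of Kcnd channels differed by values from -0.10 for Kcnip2 to 0.29 for Kcnip1, and Dpp6 and Dpp10 differed by 0.05 and 0.12. Among calcium- and sodium-activated potassium channels, 7 of 9 tested genes were lower (median -0.18), and Kcnt2, a sodium-activated channel, fell by 0.70 with a standard error of 0.11 (adjusted p = 0.0275). Kcnmb4, the neuronal beta subunit of the BK channel, differed by -0.65 ± 0.17 (adjusted p = 0.0746).

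Of 15 inward rectifiers 11 were tested, 6 higher and 5 lower, and Kcnj10 of astrocytes had the smallest p, at 0.23 ± 0.10 (limma adjusted p = 0.19). Of 14 two-pore channels 7 were tested, 3 higher and 4 lower, and Kcnk2, a stretch-sensitive leak channel, differed by 0.73 ± 0.18 (adjusted p = 0.065). Of 3 tested HCN genes 2 were higher and 1 lower, and Hcn3 had the smallest p (-0.30 ± 0.11, adjusted p = 0.134). No gene of these 3 lists passed by limma, and an unadjusted p under 0.05 was reached by 2, 4 and 1 of them.

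Markers of the cells that could hold these channels were measured too. Interneuron markers were higher in 11 of 13 (median 0.20), with scores of 0.03 to 0.15 on nicotine-sired and -0.26 to 0.16 on saline-sired arrays. By limma 0 of the 13 passed, and Dlx1, Erbb4 and Vip had an unadjusted p under 0.05. Pvalb, Gad1, Gad2 and Sst, which do not stand for the whole list, differed by 0.29, 0.03, -0.03 and 0.01. Dentate granule markers were lower in 8 of 8 (median -0.70, scores -1.17 to 0.05 and -0.005 to 0.67), CA2 and CA3 markers in 6 of 10 (median -0.10, scores -1.10 to 0.45 and -0.02 to 0.23, dentate and CA3 lists both lowest on nicotine-sired 1) and pan-neuronal markers in 7 of 8 (median -0.14, scores -0.15 to 0.06 and 0.04 to 0.14). Nicotine-sired 1 was also the lowest array for the called gene Kcnh8 (5.94, beside 5.96 on nicotine-sired 3). The same held for Kcnc4, Kcng1, Kcnd3, Kcna1, Kcna3, Kcnf1, Kcnh1 and Kcnq5. But that array was the highest for Kcnh7, Kcnh2, Kcnh3, Kcnab1, Kcnab2, Kcnab3, Kcnb2, Kcnd2, Kcng2, Kcnq3, Kcns2 and Kcns3. Kcnh8 was highest on saline-sired 1 (7.34), the array with the highest dentate score. Kcnc2 was lowest on nicotine-sired 4 (9.15). Oligodendrocyte markers were higher in 10 of 10 (median 0.46), with scores of -0.11 to 0.38 on nicotine-sired and -0.41 to 0.04 on saline-sired arrays. Microglial markers were higher in 8 of 8 (median 0.26, scores -0.07 to 0.26 and -0.26 to -0.01). Endothelial and pericyte markers were higher in 8 of 8 (median 0.25, scores 0.07 to 0.20 and -0.28 to 0.09) and astrocyte markers in 8 of 10 (median 0.12, scores 0.02 to 0.08 and -0.11 to 0.04). By limma 1 endothelial or pericyte marker passed as higher and 1 CA2 or CA3 marker as lower. In the dentate, pan-neuronal, oligodendrocyte, microglial and astrocyte lists 0 passed. An unadjusted p under 0.05 was reached by 5 of 8 dentate, 3 of 10 CA2 and CA3 and 4 of 8 pan-neuronal markers. It was also reached by 8 of 10 oligodendrocyte, 4 of 8 microglial, 5 of 8 endothelial and pericyte and 3 of 10 astrocyte markers. The part of these markers in the channel differences was not tested. The fit with the CA1 covariate is no such test, as the CA1 score itself differed between the groups.

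Choroid plexus markers, higher in 5 of 6, and striatal markers, higher in 7 of 7, stood apart on nicotine-sired 4, with scores of 3.69 and 2.29 against at most 0.59 and -0.06 on any other array. Without that array Kcnc2 differed by -0.57 and Kcnh8 by -1.03, and both passed. Wfs1 of CA1 and Prox1 of granule cells, at mean signals of 11.07 and 9.64, lay well above the filter value. Median signals per array ran from 6.252 to 6.2947 on nicotine-sired and from 6.2952 to 6.355 on saline-sired arrays, so every nicotine-sired array had the lower median. Over all tested probe sets 313 passed, 179 higher and 134 lower, and median centring of the arrays gave 199 higher and 91 lower.

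Of the 43 genes, 5 are called in the authors' deposited table at an adjusted p of 0.05. In the authors' deposited table Kcnh8 has an adjusted p of 0.00503, Kcnh7 0.0126, Kcnh2 0.0284 and Kcnd3 0.041, and Kcnc2 is not called (0.0787). Kcnh8 was the 1 gene called there and by limma. The share called among all gene probe sets of the authors' deposited table is 5.53%. Both rest on the same array values, and the sources used here do not give the model behind the deposited p-values. The plot of settings shows how the 2 limma calls depended on the processing.

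**Figure D5:**
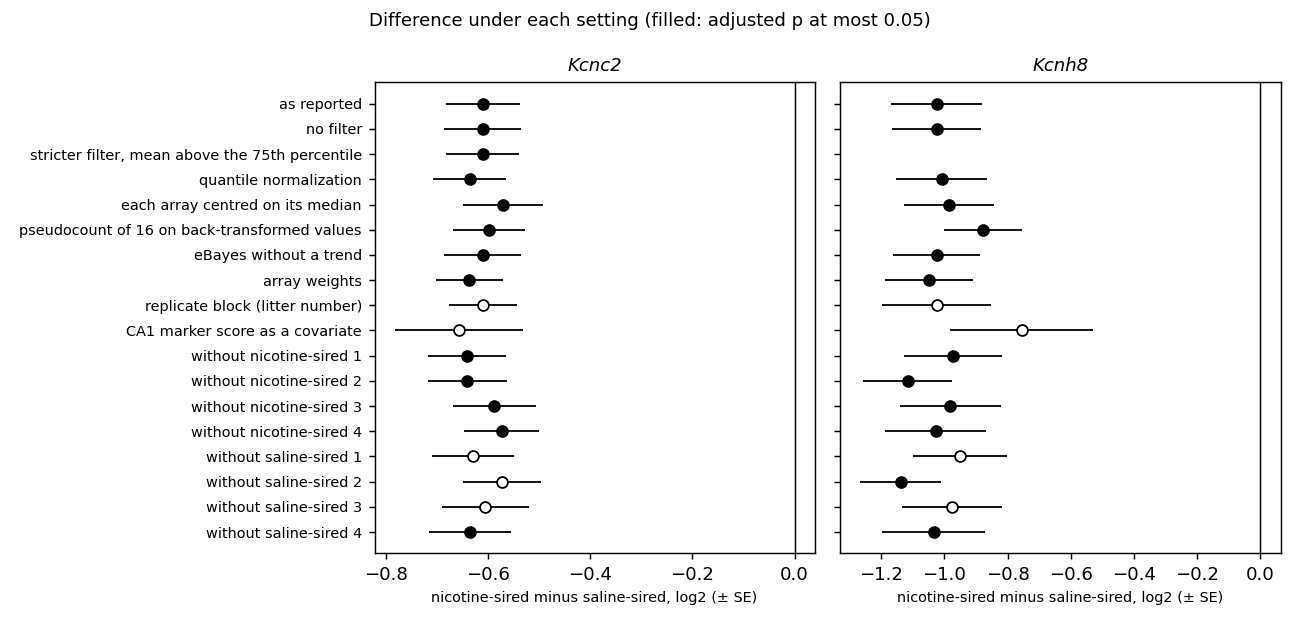
Difference of Kcnc2 and Kcnh8 (x axes, log2 units, nicotine-sired minus saline-sired, with standard errors) under each setting (y axis), filled where adjusted p was at most 0.05. The differences stay on the lower side in each setting, Kcnc2 between -0.66 and -0.57 and Kcnh8 between -1.14 and -0.75, while the call is lost in 5 settings for Kcnc2 and 4 for Kcnh8.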

How the data were processed

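The deposited analysis table holds log2 signals for 36685 probe sets on 8 arrays, the same values as the deposited series table. MAS5 is named, without a version, in the submitters' processing notes. The sources used here do not give the summary method, normalization or array model. For the comparison the authors also deposited, per the file headers, p-values (raw and step-up adjusted), a ratio on the linear scale and a fold score that carries a sign.

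Control classes (6362 probe sets) were left out. The 15161 of 30323 gene probe sets with a mean above the median entered one limma fit (version 3.58.1, R 4.3.3, moderated with an intensity trend; two-sided tests, Benjamini-Hochberg over all 15161). No pseudocount was used. Errors after differences are standard errors of that fit, or of the fit with the CA1 covariate where the covariate is named. The fit was tested on simulated data. The number of arrays limits the precision.

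Channel genes, lists, tests and alternatives were chosen with earlier results of these data known. Genes given in full were those that passed, those whose groups were apart, the 3 highest signals and the smallest p of each subfamily. Kcnh7, Kcnh2 and Kcnc1 were added after values were seen. Individual values of 4 of the 43 genes are not reported here, though counts over all members include them. A marker score is the mean of log2 values centred per gene. Symbols follow RefSeq (GRCr8) where the gene ID matched, which changed 0 of the 43 names, and a probe set with more than 1 symbol was left unnamed. Alternatives covered filters, normalization, pseudocount, trend, array weights, litter block, CA1 covariate and each array left out. Every channel gene had 1 probe set, so averaging probe sets changed nothing.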

Additional observations from a re-analysis of the deposited data

Results flagged for a closer look

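In 118 groups of 4 arrays (43 genes and 16 lists in both groups), 8 had a single array set off from its group. About 1 in 20 would be so by chance, or 5.9 here, and the groups are not independent. Kcnc4 stood at 7.13 on nicotine-sired 1, with the others at 8.26 to 8.34, and at 9.06 on saline-sired 1, with the others at 8.50 to 8.58. Kcng1 stood at 7.31 on nicotine-sired 1, against 8.29 to 8.40. Kcnh3 stood at 8.97 on saline-sired 3, the array lowest in CA1 markers, against 9.43 to 9.51.

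Among scores, nicotine-sired 4 stood apart for choroid plexus markers at 3.69 (others -0.86 to -0.79), for striatal markers at 2.29 (others -0.63 to -0.24) and for channel partners at -0.022 (others 0.038 to 0.041). The score of calcium- and sodium-activated potassium channels was 0.032 on saline-sired 1, against 0.13 to 0.15 on the others of its group.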

How the results depend on the processing

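The 8 arrays limit every call. In place of 2 channel genes, 1 passed with a stricter filter (Kcnc2, as Kcnh8 was too dim to be tested), 7 with array weights, and 0 with the litter number as a replicate block or with the CA1 score as a covariate, where 14 and 11 genes had an unadjusted p under 0.05. Leaving out 1 array gave 0 to 4. Over all probe sets 155 passed with no filter, 181 with a stricter filter, 1201 with array weights and 0 with the block or the covariate (3326 and 1436 at an unadjusted p under 0.05), and 0 to 725 without 1 array. By limma 0 passed without saline-sired 1 or without saline-sired 3 (2728 and 2929 at an unadjusted p under 0.05). Same-numbered litters did not deviate together (correlations -0.14, 0.18, -0.05 and -0.17). The labels do not say that the numbers pair litters, and so few correlations cannot settle whether they do. The median difference of the channel genes ran from -0.07 to -0.02 without 1 array. The subfamily contrast of Kcnh8 ran from -1.43 to -1.13 without 1 array.

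With the CA1 covariate 27 of the 36 tested channel genes were lower, against 19 without it. Among the 18 genes followed through the alternatives, 7 differences turned: Kcna1 to 0.11, Kcnab1 to -0.12, Kcnab2 to -0.21, Kcnd2 to -0.17, Kcnh2 to -0.16, Kcnh7 to -0.37 and Kcns2 to -0.24. Near-zero differences also turned when 1 array was left out: Kcnab2 ranged from -0.033 (nicotine-sired 1 left out) to 0.082, turning also at -0.015 (saline-sired 3 left out), and Kcnf1 from -0.18 (nicotine-sired 4 left out) to 0.26, turning also at -0.0078 (saline-sired 1 left out). The cause was not tested. Of 300 values of 18 channel genes under the alternatives, 274 kept direction and side of the threshold. For genes not called at first this means only that they stayed uncalled in the same direction. Kcnc2 and Kcnh8 alone had a call to lose, and 9 of their values lost it.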
